A study of Mus musculus with 4 samples.

Results

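Cochleae of mouse embryos, either wild-type or labelled N-myc ko, were compared for 6 genes. The products of these genes build, or help to lay down, the extracellular gels and crystals of the inner ear. The genes were Tecta (ENSMUSG00000037705), Tectb (ENSMUSG00000024979), Otoa (ENSMUSG00000034990), Otog (ENSMUSG00000009487), Oc90 (ENSMUSG00000015001) and Otop1 (ENSMUSG00000051596). They were chosen by these Ensembl gene IDs, with earlier results of these data known. All 6 were found among the 23879 genes of the table. N-myc, the product of Mycn, is a MYC-family transcription factor that drives growth and division of progenitor cells. Each group had 2 arrays, which the labels call biological replicates, of cochleae dissected at embryonic day 15 from mice of 129/Sv and CD-1 background. The labels do not say whether an array held 1 embryo or several, and the sources used here name neither the mutant allele nor any Cre driver. The p-values therefore rest on the spread between these samples. In the limma fit each gene's own spread was also drawn toward that typical of all genes.

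The tectorial membrane is an acellular gel that lies over the organ of Corti and couples sound-driven motion to the hair bundles. It is made of collagens and of the glycoproteins alpha-tectorin, beta-tectorin and otogelin. Epithelial cells of the cochlear floor secrete these glycoproteins during embryonic and early postnatal life. Otoconia are crystals of calcium carbonate on a protein core that load the sensory patches of the utricle and saccule, the vestibular organs next to the cochlea. The cochlea itself bears none.

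Of the 6 genes, 5 fell in the N-myc ko cochleae and 1, Tectb, did not pass the test. Otoa fell by 1.88 on the log2 scale (3.67-fold), Oc90 by 1.56 (2.96-fold), Tecta by 0.88 (1.85-fold), Otog by 0.88 (1.84-fold) and Otop1 by 0.69 (1.61-fold). Tectb, which encodes the partner of the Tecta product, had a change of 0.22 in the other direction. A gene was called changed at a Benjamini-Hochberg adjusted p of at most 0.14 in limma, the false discovery rate that the series' design text names. At that limit 34.7% of all genes were called, 19.8% as lower and 14.9% as higher, so a call by itself is common in these data. The balance depends on the scaling: 4719 genes were lower and 3561 higher as deposited, 3566 lower and 4687 higher with each array centred on its median, and 2414 lower and 2402 higher after quantile normalisation. Both N-myc ko arrays lay below both wild-type arrays for the same 5 members, and for 36.2% of all genes. At least a 2-fold fall with a call was rarer, at 0.369% of all genes, and Otoa and Oc90 were the 2 members with one; without N-myc ko replicate 2 the change of Oc90 was -0.64. At an adjusted p under 0.05, where 8.20% of all genes were lower, 4 members were lower, all but Tectb and Oc90. The median log2 change was -0.88 over the 6 members and -0.030 over all genes. In cochlear tissue fewer cells that make a transcript and less of it per cell cannot be told apart.

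**Figure D1:**
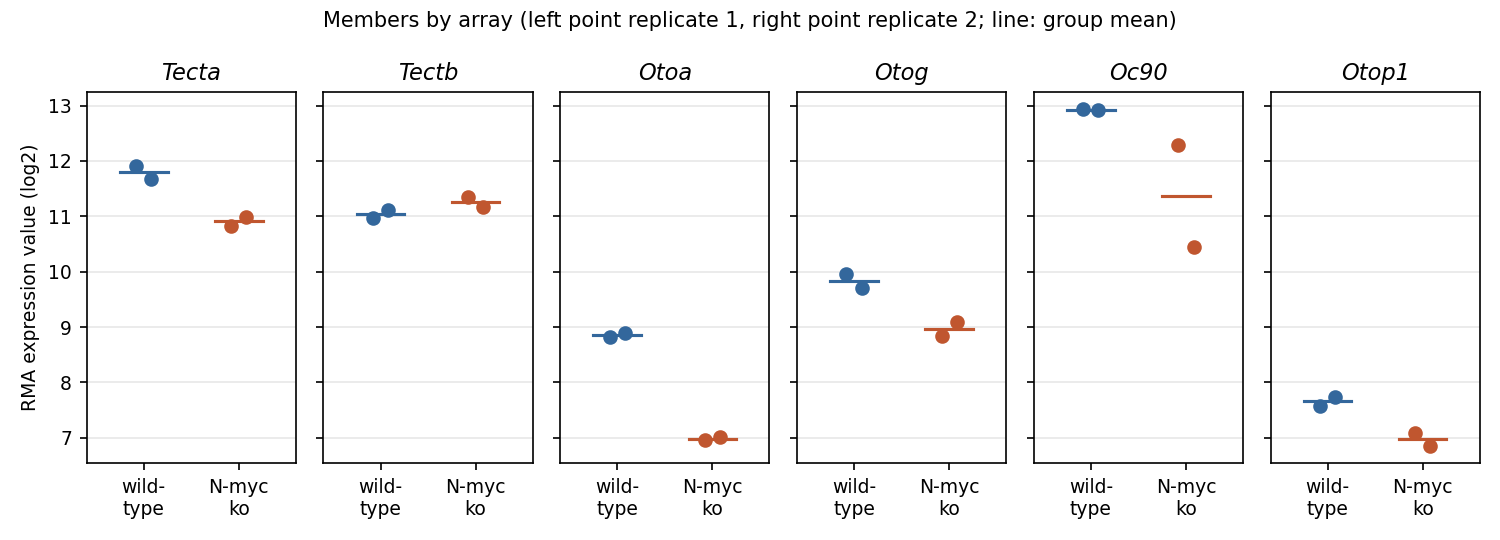
RMA expression values (log2, y axis) of the 6 genes on each array, with wild-type in blue and N-myc ko in orange; points are arrays and lines are group means (n = 2). Both N-myc ko arrays lie below both wild-type arrays for Tecta, Otoa, Otog, Oc90 and Otop1 and above them for Tectb, and the N-myc ko arrays of Oc90 stand 1.85 apart.

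The stretches before the start sites are shown for Otoa, the member with the widest fall, and for the tectorin genes Tecta and Tectb, which encode partner proteins and whose changes had opposite signs. RefSeq (GRCm38.p6) listed start sites for 5 of the 6 members. Each stretch is the 250 bases before a start, read along the gene's strand, and for Tecta the outer of its 2 listed starts was taken. Capitals mark CANNTG, the general E-box, within which CACGTG is the form that MYC proteins favour.
Otoa, chr7:121083174-121083423, plus strand: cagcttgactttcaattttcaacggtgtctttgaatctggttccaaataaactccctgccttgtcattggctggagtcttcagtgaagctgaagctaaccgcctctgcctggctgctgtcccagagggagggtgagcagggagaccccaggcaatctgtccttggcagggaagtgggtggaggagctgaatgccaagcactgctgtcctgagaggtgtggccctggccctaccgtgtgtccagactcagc
Tecta, chr9:42401691-42401940, minus strand: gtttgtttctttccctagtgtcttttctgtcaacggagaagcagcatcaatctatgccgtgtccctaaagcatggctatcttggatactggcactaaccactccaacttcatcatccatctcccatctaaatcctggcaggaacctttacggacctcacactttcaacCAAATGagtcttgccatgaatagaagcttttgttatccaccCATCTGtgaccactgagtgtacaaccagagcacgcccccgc
Tectb, chr19:55180476-55180725, plus strand: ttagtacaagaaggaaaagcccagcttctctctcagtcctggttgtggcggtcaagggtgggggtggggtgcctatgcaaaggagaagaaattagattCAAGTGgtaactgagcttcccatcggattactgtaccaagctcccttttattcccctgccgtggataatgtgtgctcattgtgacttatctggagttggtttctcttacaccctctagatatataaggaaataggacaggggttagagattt

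Searched on both strands, CACGTG occurred in none of the 6 stretches before the starts of Tecta (both starts), Tectb, Otoa, Otog and Otop1, and it occurs in 6.02% of the 32841 promoter stretches of the same length. The looser CANNTG, which includes CACGTG, is in 66.2% of those stretches. It occurred at 2 places before each Tecta start, at 1 place before Tectb, Otog and Otop1, and at 0 places before Otoa. TATAAA was found in none of the 6 and is in 12.4% of all. Only this exact string was searched, so a variant such as the tatataag before Tectb was not counted. The share of G and C was 56.0% before Otoa, 47.2% before the outer Tecta start, 46.0% before Tectb, 57.2% before Otog and 70.0% before Otop1, against a median of 52.4%. The count of CG pairs was 3, 5, 3, 0 and 13 in the same order, against a median of 6. These letters describe the windows alone.

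Tecta encodes alpha-tectorin, a large glycoprotein that holds the collagen fibrils of the tectorial membrane in order. The wild-type arrays gave log2 values of 11.91 and 11.68, and the N-myc ko arrays 10.83 and 10.98. Both N-myc ko arrays were low, and a gap of 0.69 separated the groups, wider than the 0.23 and 0.15 between replicates. The group means were 11.79 ± 0.17 and 10.91 ± 0.11 (SD, n = 2 each), and the change was -0.88 (SE 0.12, 95% interval -1.17 to -0.60, limma adjusted p = 0.0158). As a ratio, the wild-type level was 1.85 times that of the N-myc ko, with an interval from 1.51 to 2.25.

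Tectb encodes beta-tectorin, which like alpha-tectorin carries a zona pellucida domain and is needed for the striated sheet between the collagen fibrils. Its log2 values were 10.97 and 11.12 in wild-type and 11.36 and 11.17 in N-myc ko cochleae. The N-myc ko arrays were slightly the higher, but the gap between the groups, 0.046, was narrower than the 0.15 and 0.19 between replicates. The change of 0.22 (SE 0.11, 95% interval -0.05 to 0.49) did not pass the test (limma adjusted p = 0.219). Groups that do not overlap are common in these data, at 64.9% of all genes. The interval leaves out a fall of more than 1.04-fold, while it includes a rise of up to 1.40-fold.

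Otoa encodes otoancorin, a protein of the cell surface that anchors the tectorial membrane to the spiral limbus. In wild-type its log2 values were 8.82 and 8.90, against 6.96 and 7.01 in N-myc ko. The groups stood 1.81 apart, and replicates differed by 0.083 and 0.055. The means were 8.86 ± 0.059 and 6.98 ± 0.039 (SD, n = 2 each), a change of -1.88 (SE 0.09, 95% interval -2.10 to -1.65, limma adjusted p = 0.00163). The wild-type level was 3.67 times that of the N-myc ko (interval 3.14 to 4.28). Of all 23879 genes, 11 had a deeper fall.

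Otog encodes otogelin, a mucin-like glycoprotein found in the tectorial membrane as well as in the otoconial membranes and cupulae of the vestibular organs. Log2 values of 9.97 and 9.71 were measured in wild-type, and of 8.83 and 9.09 in N-myc ko cochleae. Both N-myc ko arrays were low, 0.62 or more below the wild-type arrays, with 0.26 and 0.25 between replicates. The means were 9.84 ± 0.18 and 8.96 ± 0.18 (SD, n = 2 each), a change of -0.88 (SE 0.13, 95% interval -1.21 to -0.55, limma adjusted p = 0.0196).

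Oc90 encodes otoconin-90, the main protein of mouse otoconia, related to secreted phospholipases. The log2 values were 12.94 and 12.91 in wild-type, 12.29 in N-myc ko replicate 1 and 10.44 in N-myc ko replicate 2. Both N-myc ko arrays were low, but N-myc ko replicate 2 was far lower than replicate 1. The 1.85 between them (3.61-fold) was exceeded by 1 other gene of the table, and the median gap between the N-myc ko arrays was 0.112. The means were 12.93 ± 0.019 and 11.36 ± 1.31 (SD, n = 2 each). The change of -1.56 (SE 0.53, 95% interval -2.84 to -0.29) passed the limit of 0.14 but not that of 0.05 (limma adjusted p = 0.0906). Its size rested on the N-myc ko array used: it was -0.64 without N-myc ko replicate 2 (limma adjusted p = 0.0422) and -2.49 without N-myc ko replicate 1 (limma adjusted p = 0.00153). Without wild-type replicate 1 or wild-type replicate 2 the change was -1.55 or -1.58. Leaving out an array leaves its group with no replicate, so only sizes are given for these fits.

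Otop1 encodes otopetrin 1, a membrane protein that conducts protons and is required for otoconia to form, and so is no matrix component itself. Its 2 wild-type log2 values were 7.57 and 7.74, and its 2 N-myc ko values 7.09 and 6.85. Both N-myc ko arrays were low, with 0.48 between the groups and 0.17 and 0.25 between replicates. The means were 7.66 ± 0.12 and 6.97 ± 0.17 (SD, n = 2 each), a change of -0.69 (SE 0.12, 95% interval -0.99 to -0.39, limma adjusted p = 0.0242).

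In these data the typical change depended on how bright a gene was, so each member was set beside the genes whose mean log2 value over the 4 arrays lay within 0.25 of its own. This is a description, with no test. The 405 genes as bright as Tecta had a median change of -0.068 (quartiles -0.20 and 0.042), and 17.5% of them were called lower; 0 of them fell as far as Tecta. The 486 genes as bright as Tectb had a median of -0.086, and 450 of them (92.6%) had a lower change than Tectb. Tecta and Tectb, close in brightness, thus lay toward opposite ends of such genes.

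For Otoa the 1854 genes of equal mean had a median change of -0.15 (quartiles -0.34 and 0.045), 31.7% were called lower, and 5 fell further. For Otog the 1807 such genes had a median of -0.20 (quartiles -0.34 and -0.056), 37.6% were called lower, and 13 fell further. A call of Otog as lower was therefore common for its brightness, while its size was not. Of 140 genes as bright as Oc90, with a median of -0.016, 21 were called lower and 0 fell as far as the mean change of Oc90. The 1740 genes as bright as Otop1 were spread more widely, with quartiles of -0.24 and 0.20 around a median of -0.032, and 50 of them (2.87%) fell further. Less the median of genes of equal mean, the changes were -0.82 for Tecta, 0.30 for Tectb, -1.72 for Otoa, -0.68 for Otog, -1.55 for Oc90 and -0.66 for Otop1. The order of the members by change was the same with and without this subtraction.

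**Figure D2:**
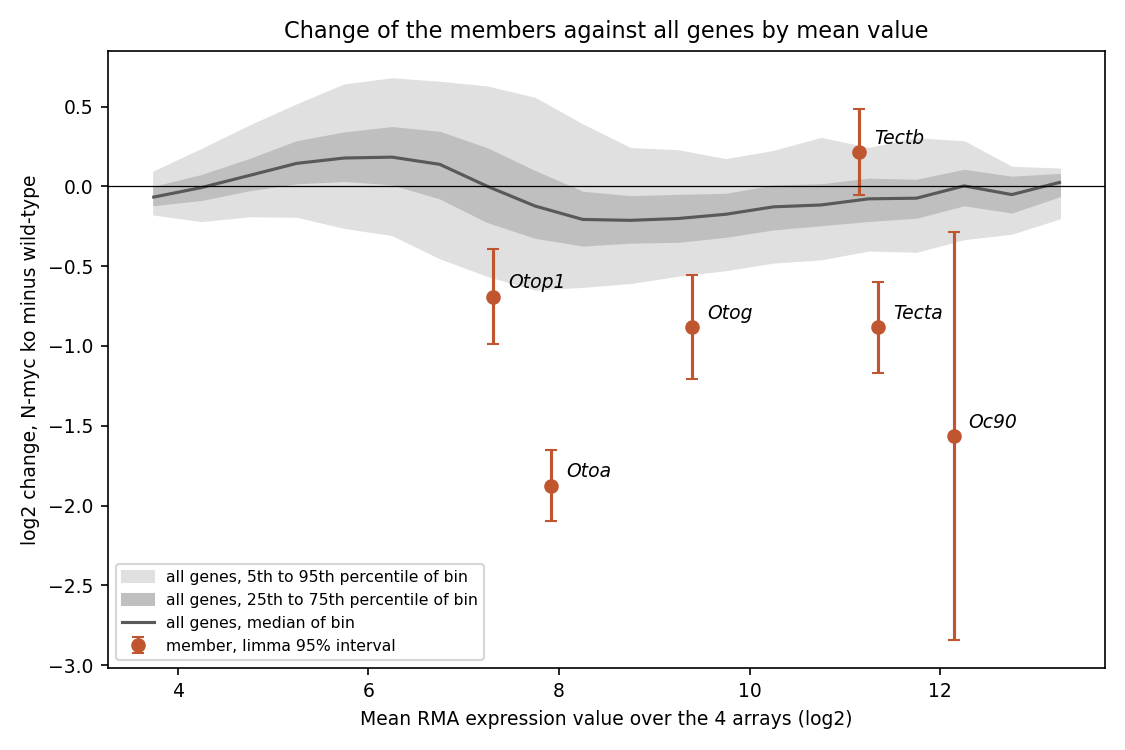
The log2 change, N-myc ko minus wild-type (y axis), against the mean log2 value over the 4 arrays (x axis); grey bands and line show percentiles and medians of all genes in bins 0.5 wide, and orange points are the 6 members with limma 95% intervals. Tecta, Otoa, Otog, Oc90 and Otop1 lie below the median of genes of their brightness and Tectb above it.

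The members were also compared with each other on the same array, which removes any shift common to the whole array. Tecta minus Tectb was 0.94 and 0.56 in wild-type, against -0.52 and -0.18 in N-myc ko, so the difference changed by -1.10. Relative to Tectb, each of the other 5 members was lower on both N-myc ko arrays than on both wild-type arrays. That direction follows from the single genes and adds nothing to them. Both N-myc ko arrays lay above both wild-type arrays for Tectb and below them for the other 5. Tectb minus Otoa was 2.15 and 2.22 in wild-type, against 4.40 and 4.15 in N-myc ko. With Otog in place of Otoa it went from 1.00 and 1.41 to 2.52 and 2.08, and with Otop1 from 3.40 and 3.37 to 4.26 and 4.32. Tectb minus Oc90 went from -1.97 and -1.80 to -0.93 and 0.73, with N-myc ko replicate 2 again standing apart.

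Otoa was also lower on both N-myc ko arrays relative to Tecta, Otog and Otop1. Tecta minus Otoa was higher by 0.99, going from 3.09 and 2.77 to 3.87 and 3.97. For Otoa minus Otog the shift was -0.99, and for Otoa minus Otop1 it was -1.18. Tecta and Otog kept near the same distance, 1.94 and 1.97 in wild-type and 2.00 and 1.90 in N-myc ko, a shift of -0.0041 with groups that overlap. Of 15 pairs of members, 8 had groups that do not overlap. Groups do not overlap for 64.9% of all single genes, but no such share was made over pairs of genes. The count is therefore not read as particular to the members. These 8 are the 5 pairs with Tectb, whose separation follows from the single genes, and the 3 of Otoa with Tecta, Otog and Otop1. For each of the 8 a two-sided exact permutation test over the arrays gave p = 0.333, the smallest that this test can give with 2 arrays against 2 (0.624 adjusted over the 15 pairs). This test therefore cannot tell the members apart, and the differences between them are given as values.

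**Figure D3:**
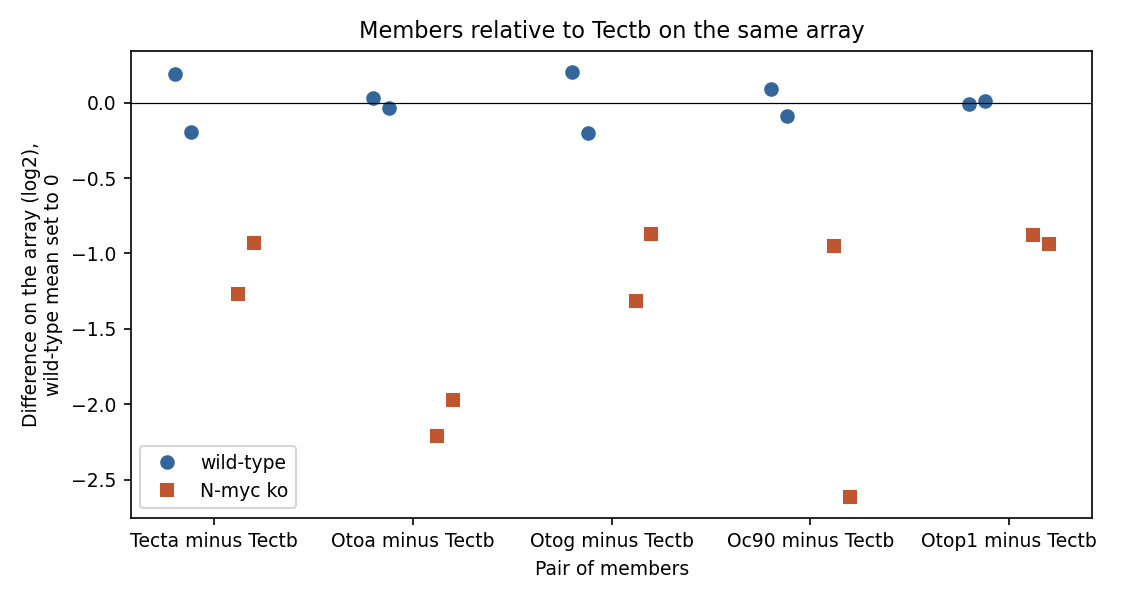
Difference in log2 value (y axis) between each of 5 members and Tectb on the same array, with the wild-type mean of each pair set to 0; blue circles are the 2 wild-type and orange squares the 2 N-myc ko arrays, replicate 1 at the left. Both N-myc ko squares lie below both wild-type circles in all 5 pairs, which follows from the single-gene values, and the Oc90 squares are the farthest apart.

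With 1 array left out, the change of Otoa ran from -1.92 to -1.83, that of Tecta from -1.001 to -0.77, that of Otog from -1.01 to -0.75 and that of Otop1 from -0.81 to -0.57. All 4 of these genes remained lower in each of the 4 fits. Tectb ran from 0.12 to 0.31. Calls are not given for these fits, which take the spread from the group that keeps 2 arrays. Oc90 had the widest range, from -2.49 to -0.64.

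**Figure D4:**
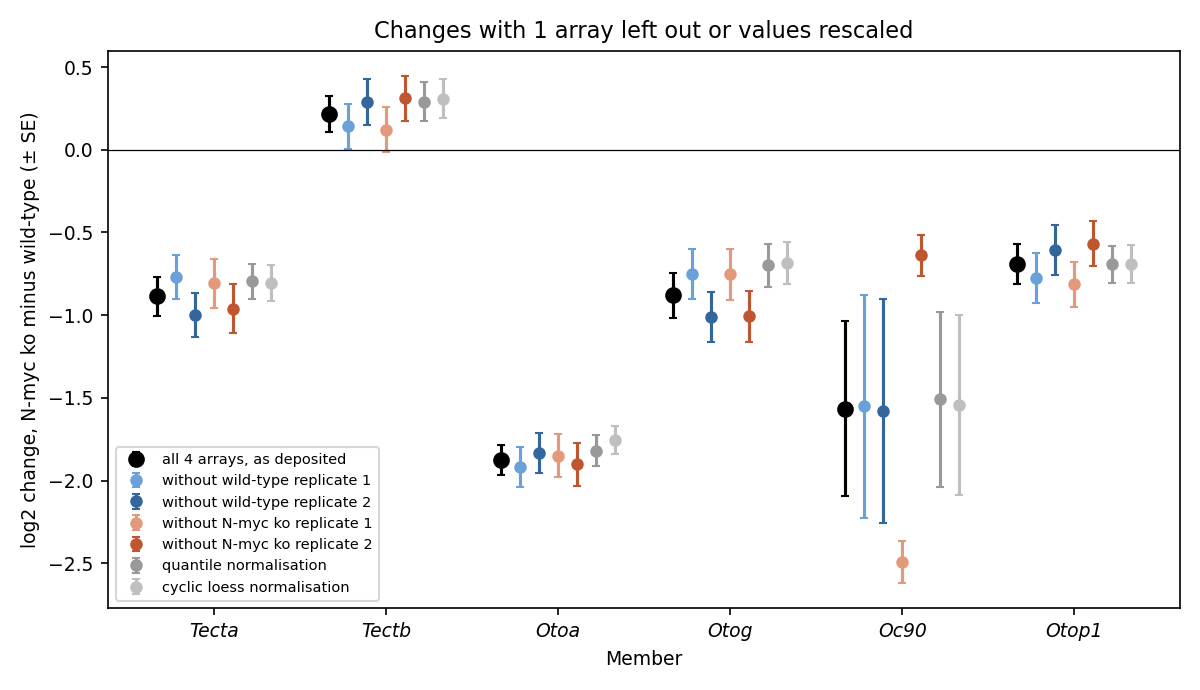
The log2 change, N-myc ko minus wild-type (y axis, ± SE), of the 6 members (x axis) on all 4 arrays (black), with 1 array left out (blue and orange) and after quantile or cyclic loess normalisation (grey). Otoa varies least among the members that fell, Oc90 moves from -2.49 to -0.64 with the N-myc ko array left out, and Tectb is above 0 throughout.

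The genes with the pattern most like that of Otoa over the 4 arrays were sought by the root mean square difference between log2 values, each gene centred on its own mean. The nearest was ENSMUSG00000022949, at 0.12, with 9.35 and 9.18 in wild-type against 7.28 and 7.22 in N-myc ko (change -2.01). The next was ENSMUSG00000026778, at 0.12, with 7.86 and 8.05 against 6.23 and 6.39 (change -1.65). Both were picked for their likeness to Otoa, so their low N-myc ko values follow from the choice and were given no test. The tables used here pair no name with these IDs.

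Over all genes the arrays of a group were the most alike, with Pearson's r across genes of 0.995 in both groups and from 0.983 to 0.987 between groups. Markers of cochlear cell types and the transcript of the targeted gene, Mycn, were not analysed here, so neither the tissue label nor the genotype was checked against them.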

How the data were processed

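Gene expression was measured on 4 microarrays of mouse cochlea, 2 wild-type and 2 N-myc ko. The authors made the deposited log2 values with RMA, per the series' design text, run in the affy package, per the submitters' processing notes. RMA corrects background, normalises between arrays and summarises the probes of a gene. The sources used here give neither the array design nor versions. Values run from 3.63 to 14.3, on 23879 rows of 1 Ensembl ID each. Brightness depends on the probes too, so differences in level between genes were not read as differences in amount. Differences between members on an array were compared only between the groups. Arrays have no depth; their number limits the precision.

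All rows were fitted in R 4.3.3 with limma 3.58.1 (a linear model with eBayes, 2 residual and 4.33 prior degrees of freedom, two-sided, Benjamini-Hochberg over all rows), and the code was tested on simulated data. The methods' SAM test was not rebuilt. Named genes were all 6 members, identified by the IDs and symbols of the rule, and the 2 rows nearest to the member with the widest change. The members and lists were chosen with earlier results of these data known. Lists of other tectorial membrane, otoconial and cell type genes by symbol were not analysed here, because the tables at hand pair no other row ID with a name. Promoter sequences came from RefSeq (GRCm38.p6). Alternatives were other scalings, variance models, a brightness filter, a replicate block and leaving out arrays.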

Additional observations from a re-analysis of the deposited data

How the results depend on the processing

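Otoa, Tecta and Otog kept their direction under each alternative run, and their call as lower under each with all 4 arrays. So did Otop1 where it was tested. Otop1 is not among the genes above the median brightness. With all 4 arrays, changes ranged from -1.88 to -1.75 for Otoa, -0.88 to -0.80 for Tecta, -0.88 to -0.69 for Otog and -0.69 to -0.64 for Otop1. Without 1 array they ranged from -1.92 to -1.83 for Otoa, -1.001 to -0.77 for Tecta, -1.01 to -0.75 for Otog and -0.81 to -0.57 for Otop1. The call of Oc90 was lost at an adjusted p under 0.05 (change -1.56) and after quantile normalisation (-1.51, limma adjusted p = 0.141). It was also lost with robust variances and a brightness trend (-1.56, limma adjusted p = 0.255). Without 1 array the change of Oc90 ranged from -2.49 to -0.64. Tectb was called higher after centring each array on its median (0.27, limma adjusted p = 0.125) and was uncalled otherwise with all 4 arrays. Without 1 array the change of Tectb ranged from 0.12 to 0.31. The cause of these losses and gains was not tested. The count of members called lower was 5 and lay between 4 and 5 under all alternatives with 4 arrays. The share of all genes called lower went from 19.8% to 10.1% after quantile normalisation. At an adjusted p under 0.05 this share was 8.2%. Among the genes above the median brightness it was 34%, and 4 members were called lower there. Same-numbered arrays share no stated origin (r = 0.12 between their deviations from the group means). With the replicate block no call changed. The block cannot move the changes themselves, because both groups hold the same replicate numbers. Nor can the stricter limit, the brightness trend, the robust variances or the brightness filter move them. Where 1 array was left out, its group's remaining array was taken to vary as the other group does.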
